A study of Mus musculus with 10 samples.

Results

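The 41 genes described here copy DNA in S phase or supply its building blocks. They comprise the 6 subunits of the MCM helicase, 5 origin licensing genes, 4 genes of the CMG helicase complex, 8 genes of the primase and the replicative polymerases, 6 genes of the sliding clamp and its loader, the 3 subunits of replication protein A, 2 genes of Okazaki fragment processing, 5 genes of deoxynucleotide synthesis and the 2 genes of cyclin E. They were chosen by function from a list of gene symbols, with earlier results of these data known. Each gene was read from the probe set with its symbol alone that had the highest mean intensity over the 10 arrays. All 41 were found and tested, of 12496 genes tested in all. RNA came from mouse erythroleukemia (MEL) cells, a transformed line with features of red cell precursors, and was hybridised to Affymetrix Mouse Genome 430 2.0 arrays. The parental line, MelBirA, carries the biotin ligase BirA, and 2 arrays were made from it. The 4 subclones are FBB1.5 and FBB1.7, together with FBB1.10 and FBB1.11. Each carries BirA and in addition stably expresses the transcription factor BCL11A with a FLAG-Biotag, which BirA can biotinylate, and was put on 2 arrays. The labels name no treatment or time. Each subclone is a separate line and cannot stand for all cells with the tagged factor. The arrays are numbered 1 and 2 within a line, and whether a pair comes from separate cultures is not stated. The p-values therefore rest on the spread within such pairs, which may be only technical.

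Before S phase, the origin recognition complex, Cdc6 and Cdt1 load MCM hexamers on DNA, and Cdc45 and the GINS proteins then join MCM to form the active helicase. The polymerase alpha and primase complex starts each strand, the loader made of Rfc subunits places the PCNA clamp, polymerases delta and epsilon extend, and Fen1 and Lig1 join the lagging-strand fragments. Ribonucleotide reductase, made of Rrm1 with Rrm2, turns ribonucleotides into deoxyribonucleotides. Many of these genes are transcribed at the start of S phase under E2F factors. In RNA from a whole culture, a larger share of cells in S phase and more of these transcripts per cell cannot be told apart.

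Promoter sequences are shown because 3 genes that passed the test in FBB1.7, Mcm5 and Mcm6 of the helicase and Pola1 of polymerase alpha, hold letters that E2F factors are known to bind. RefSeq promoter windows of build GRCm38.p6, from 250 bases before to 50 after a gene's start, were at hand for 33 of the 41 genes, matched by symbol. The letters searched were TTTCCCGC, TTTCGCGC, TTTGCCGC and TTTGGCGC on both strands, which can overlap one another. Each line gives the 160 bases before the start, 5′ to 3′ on the gene's own strand, with the matches in capitals.
Mcm5, chr8:75109349-75109508, plus strand: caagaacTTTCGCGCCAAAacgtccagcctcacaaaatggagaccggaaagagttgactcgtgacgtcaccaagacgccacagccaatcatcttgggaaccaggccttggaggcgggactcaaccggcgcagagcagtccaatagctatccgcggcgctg
Mcm6, chr1:128359706-128359865, minus strand: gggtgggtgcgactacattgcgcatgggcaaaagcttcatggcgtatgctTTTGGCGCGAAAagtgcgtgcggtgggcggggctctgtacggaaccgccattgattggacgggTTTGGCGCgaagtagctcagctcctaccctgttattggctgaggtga
Pola1, chrX:93632156-93632315, minus strand: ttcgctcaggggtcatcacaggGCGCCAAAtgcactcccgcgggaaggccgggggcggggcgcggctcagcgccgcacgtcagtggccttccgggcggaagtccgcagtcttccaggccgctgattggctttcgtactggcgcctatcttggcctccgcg
In Mcm5 a single run of capitals holds 2 overlapping matches, Mcm6 has 3 matches of which 2 overlap, and Pola1 has 1. At least 1 match lay in the windows of 13 of the 33 genes (39.4%), against 704 of 27025 genes with a window (2.6%). Those 27025 were taken whether or not they were tested on these arrays. Of the members that passed in FBB1.7 with a window, 3 of 11 held a match (27.3%), and of the members that did not pass 10 of 22 did (45.5%). The letters CCAAT, searched on both strands, were in the windows of 20 of the 33 genes (60.6%), against 41.1% of the 27025 genes. A match in these letters is a description and not a measured binding site.

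Values are linear intensities as the authors deposited them, and differences are on the scale of log2(intensity + 16), which understates the change of dim genes. Every member lay above the median of the whole table, 30.5, on all 10 arrays, and member means ran from 40.5 (Tyms) to 1684 (Cdt1) with a median of 328.0, against a median of 117 over all genes tested. Array medians lay between 29.6 and 31.6. Arrays of 1 line correlated at 0.981 to 0.989 over the tested probe sets and arrays of different lines at 0.968 to 0.987. The ratio of 3′ to 5′ actin control probe sets, a sign of RNA integrity, was 1.80 on parental 2 and 1.47 on FBB1.5 1. It was lowest on FBB1.7 1 (1.07) and FBB1.7 2 (1.06), and between 1.12 and 1.22 on the remaining arrays. The probe set of Bcl11a with the largest rise averaged 37.8 in parental cells, 63.7 in FBB1.7 and 79.0 in FBB1.5, but 199 in FBB1.10 and 213 in FBB1.11, and passed the test in every subclone except FBB1.7 (adjusted p = 0.071). A second one, also of Bcl11a, averaged 329.8 in parental cells and a lower 233 in FBB1.7 (adjusted p = 0.015). No other tested probe set of Bcl11a passed in FBB1.7, and the brightest averaged 327 in parental cells and 334 in FBB1.7 (adjusted p = 0.91). Which of the probe sets reads the tagged copy is not stated. Of 10 red cell precursor markers 9 had a probe set and 8 were tested. Summed intensities of the 9 were 7530 to 9445 over the 10 arrays, and Gata1, a defining factor of these cells, averaged 2244. The anion exchanger Slc4a1 lay below the filter.

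Of the 41 replication genes, 15 rose in FBB1.7 over parental cells (36.6%) and 0 fell, at an adjusted p under 0.05 over all tested probe sets, while 26 did not pass. Over all genes tested, 4.29% were called higher and 6.39% lower in that subclone. Among the 4783 genes at least as bright as the lower quartile of the members, 8.68% were called higher. Because the members were chosen with earlier results of these data known, these shares are a description and not a test of the set. The median log2 difference of the 41 genes was 0.27, against -0.02 over all genes tested. Of the 41, 35 (85.4%) lay above 0 and 6 below, against 47.6% of all genes above 0. The 15 genes were 1.22 to 1.66 times as bright in FBB1.7 as in parental cells. They came from every role except Okazaki fragment processing and cyclin E. Both FBB1.7 arrays lay above the 8 other arrays for 17 of the 41 genes (41.5%), against 6.39% of all genes. The count of genes that rose was 6 without FBB1.7 1 and 6 without FBB1.7 2, 8 without parental 1, and 7 where the spread was estimated with no trend on intensity. With the actin ratio in the fit Mcm4, Rfc2, Rfc5 and Prim1 lost their calls. With each array centred on its median Rfc2 and Orc6 did, and with no filter on dim probe sets Pola1 and Orc6. Rfc2 also lost its call with quantile normalization and with the mean of a gene's tested probe sets.

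**Figure D1:**
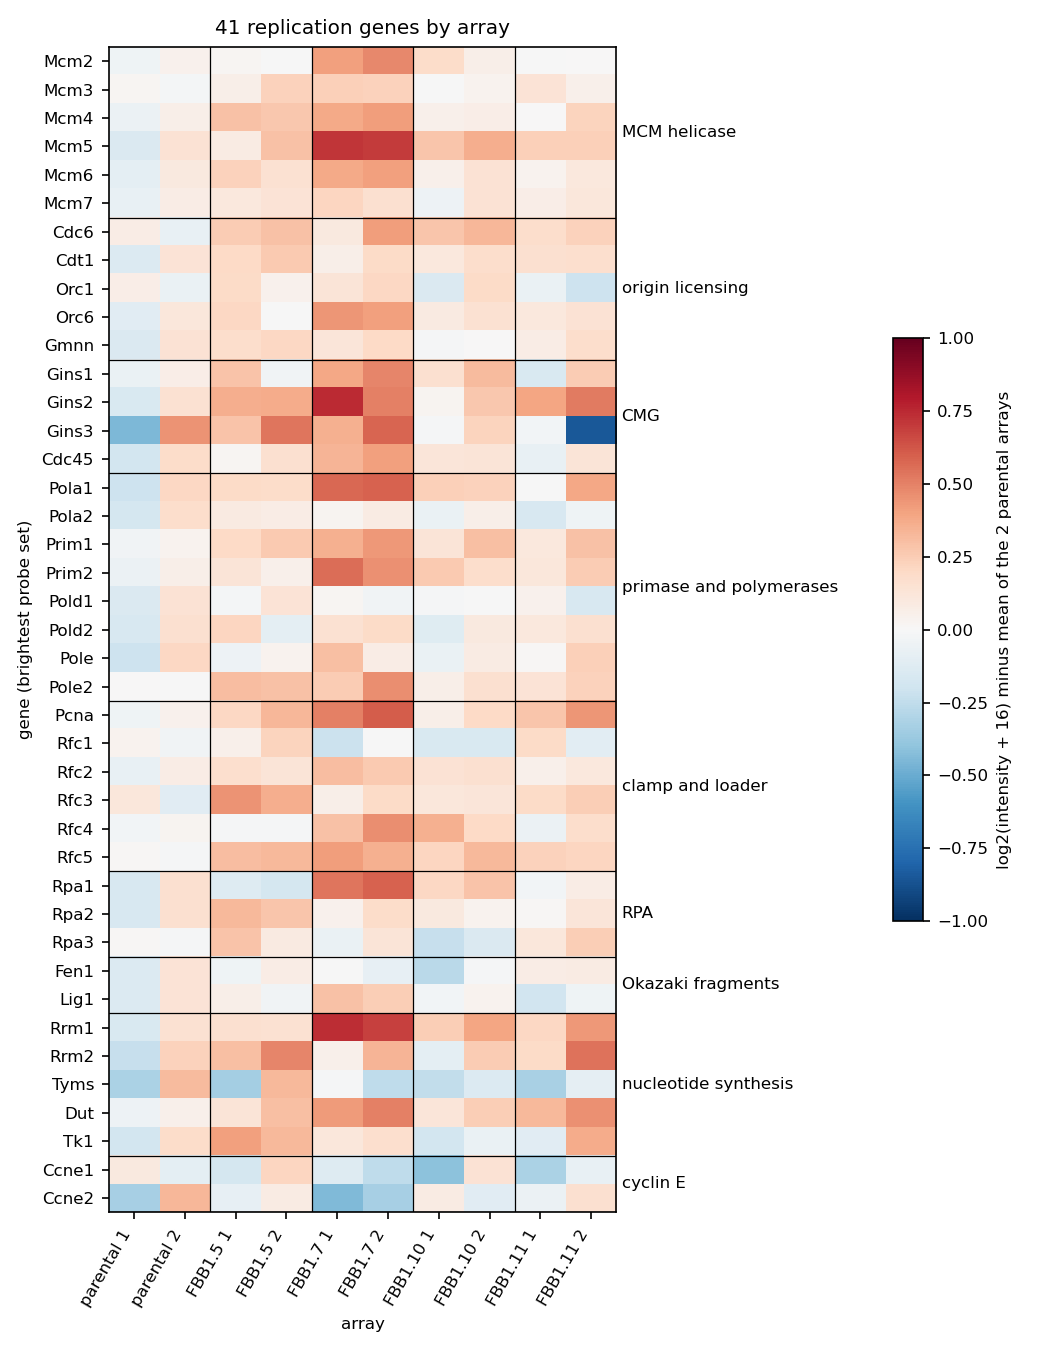
Log2(intensity + 16) of each of the 41 genes on each of the 10 arrays, as the difference from the mean of the 2 parental arrays, grouped by role (red, higher; blue, lower). The 2 FBB1.7 columns hold most of the deep red cells, in the MCM helicase, the clamp, primase and the reductase subunit Rrm1. The parental 1 column is mostly blue.

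The MCM helicase unwinds the DNA ahead of the fork, and 4 of its 6 subunits rose in FBB1.7. Mcm5 had intensities of 1470.0 and 1454 on the FBB1.7 arrays against 802 and 988 on the parental arrays, 945 and 1093 on those of FBB1.5, 1085 and 1149 on those of FBB1.10 and 1055 and 1051 on those of FBB1.11. Both FBB1.7 arrays stood clear of every other array, and parental 1 was the lowest. The difference in FBB1.7 was 0.71 ± 0.10 (SE, adjusted p = 0.00043). Mcm2 gave 940.2 and 986 on the FBB1.7 arrays against 682 and 722 on the parental arrays, 711 and 702 on those of FBB1.5, 800.2 and 733 on those of FBB1.10 and 700.2 and 702 on those of FBB1.11. The lines other than FBB1.7 overlapped or lay close together, and Mcm2 was higher in FBB1.7 by 0.45 ± 0.08 (SE, adjusted p = 0.0037). Mcm6 was at 818 and 835 on the FBB1.7 arrays against 583 and 669 on the parental arrays, 734 and 696 on those of FBB1.5, 647 and 694 on those of FBB1.10 and 641 and 675 on those of FBB1.11. Here FBB1.5 came next after FBB1.7, and the FBB1.7 difference was 0.39 ± 0.09 (SE, adjusted p = 0.013). Mcm4 showed the same top pair of arrays, with 584 and 601 on the FBB1.7 arrays against 429 and 464 on the parental arrays, 549 and 543 on those of FBB1.5, 463 and 469 on those of FBB1.10 and 447 and 523 on those of FBB1.11. Its difference in FBB1.7 was 0.40 ± 0.10 (SE, adjusted p = 0.019). Mcm3 and Mcm7, the other subunits of the ring, did not pass, with differences of 0.23 (adjusted p = 0.072) and 0.19 (adjusted p = 0.17), although both FBB1.7 arrays were the highest for Mcm7. Leaving out FBB1.7 2 ended the call of Mcm2 (adjusted p = 0.051), and Mcm4 and Mcm6 lost theirs without parental 1, FBB1.7 1 or FBB1.7 2 (up to 0.12 and 0.095). The call of Mcm5 held without any 1 array, with an adjusted p of at most 0.0092.

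Of the 4 CMG genes beside MCM, 1 rose in FBB1.7. Gins2, a GINS subunit, had intensities of 191 and 159.8 on the FBB1.7 arrays against 95.4 and 121 on the parental arrays, 143 and 144 on those of FBB1.5, 110.2 and 133 on those of FBB1.10 and 147 and 162 on those of FBB1.11. Its FBB1.7 arrays were not clear of the rest, since FBB1.11 2 exceeded FBB1.7 2, and the difference from parental was 0.62 ± 0.14 (SE, adjusted p = 0.01). Without parental 1 or FBB1.7 1 the call was lost (up to 0.13). Gins1 and Cdc45 had both FBB1.7 arrays on top but did not pass, at 0.44 (adjusted p = 0.086) and 0.38 (adjusted p = 0.096). Gins3 varied widely between arrays of 1 line, from 58.1 to 122 in parental cells and from 40.1 to 83.0 in FBB1.11, and did not pass in any subclone.

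Among the origin licensing genes, 1 of 5 rose in FBB1.7. Orc6, a subunit of the origin recognition complex, measured 263 and 257 on the FBB1.7 arrays against 173 and 206 on the parental arrays, 221 and 189 on those of FBB1.5, 202 and 212 on those of FBB1.10 and 204 and 211 on those of FBB1.11. Both FBB1.7 arrays were highest, and the difference was 0.43 ± 0.12 (SE, adjusted p = 0.033). This call was lost without parental 1, either FBB1.7 array or either FBB1.11 array (up to 0.17). Cdt1, the MCM loading factor, was the brightest member and did not pass. It ran from 1391 on parental 1 to 1836 on FBB1.5 2. Cdc6, Orc1 and Gmnn, which encodes the Cdt1 inhibitor geminin, had differences of 0.16 to 0.26 in FBB1.7, with adjusted p between 0.22 and 0.5.

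Of 8 primase and polymerase genes, 3 rose in FBB1.7, and all belong to the polymerase alpha and primase complex that lays down primers. Prim2, the large primase subunit, had 273 and 254 on the FBB1.7 arrays against 173 and 189 on the parental arrays, 199 and 187 on those of FBB1.5, 220.2 and 206 on those of FBB1.10 and 197 and 218 on those of FBB1.11. FBB1.7 lay above FBB1.10, the next line, and the difference from parental was 0.51 ± 0.11 (SE, adjusted p = 0.0099). Pola1, the catalytic subunit of polymerase alpha, had 181 and 184 on the FBB1.7 arrays against 98.8 and 138 on the parental arrays, 135 and 135 on those of FBB1.5, 141 and 140.2 on those of FBB1.10 and 117 and 158 on those of FBB1.11. Its 2 parental arrays were far apart, and parental 2 lay within the range of FBB1.5, FBB1.10 and FBB1.11. The FBB1.7 difference was 0.58 ± 0.15 (SE, adjusted p = 0.025). Prim1, the small catalytic primase subunit, had 469.9 and 497 on the FBB1.7 arrays against 354 and 375 on the parental arrays, 422 and 439.6 on those of FBB1.5, 401 and 452 on those of FBB1.10 and 394 and 449 on those of FBB1.11. All 8 subclone arrays exceeded both parental arrays, and in FBB1.7 the difference was 0.39 ± 0.10 (SE, adjusted p = 0.026). Pola2, the accessory subunit of the same complex, did not pass, at 0.06 (adjusted p = 0.85). The polymerase delta and epsilon genes Pold1, Pold2, Pole and Pole2 did not pass, with FBB1.7 differences from -0.01 for Pold1 to 0.36 for Pole2 (adjusted p = 0.064 for Pole2). The call of Prim2 was lost only without FBB1.7 1 (0.1), of Pola1 without parental 1 or either FBB1.7 array, and of Prim1 without any of the parental or FBB1.7 arrays (each up to 0.16).

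The clamp and 2 of its 5 loader subunits rose in FBB1.7. Pcna, the ring that holds polymerases on DNA, had intensities of 1864 and 2005 on the FBB1.7 arrays against 1273 and 1354 on the parental arrays, 1522 and 1660.3 on those of FBB1.5, 1370.3 and 1511 on those of FBB1.10 and 1594 and 1787 on those of FBB1.11. The parental arrays were the lowest pair and the FBB1.7 arrays the highest pair, and the difference was 0.55 ± 0.08 (SE, adjusted p = 0.00074). Rfc5 had 594 and 568 on the FBB1.7 arrays against 444 and 437 on the parental arrays, 550.3 and 554 on those of FBB1.5, 514 and 555 on those of FBB1.10 and 521 and 514 on those of FBB1.11. Both parental arrays again lay below every subclone array, and Rfc5 was higher in FBB1.7 by 0.39 ± 0.09 (SE, adjusted p = 0.012). Rfc2 had 1068 and 1035 on the FBB1.7 arrays against 818 and 906 on the parental arrays, 968 and 942 on those of FBB1.5, 954 and 963 on those of FBB1.10 and 893 and 925 on those of FBB1.11. The step to the other subclones was small, and the difference was 0.28 ± 0.08 (SE, adjusted p = 0.036). Rfc4 (0.38, adjusted p = 0.058), Rfc3 (0.12) and Rfc1 (-0.11), the remaining loader genes, did not pass. Pcna kept its call without any 1 array (adjusted p at most 0.018). Rfc5 lost it without either FBB1.7 array (up to 0.12), and Rfc2 without parental 1, either FBB1.7 array or either FBB1.11 array (up to 0.21).

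Replication protein A covers single-stranded DNA at the fork, and 1 of its 3 subunits rose. Rpa1, the large subunit, had 1489 and 1545 on the FBB1.7 arrays against 914 and 1144 on the parental arrays, 935 and 903 on those of FBB1.5, 1182 and 1247 on those of FBB1.10 and 1002 and 1075 on those of FBB1.11. FBB1.7 was above all other lines, FBB1.10 came next, and FBB1.5 overlapped the parental range. The FBB1.7 difference was 0.56 ± 0.10 (SE, adjusted p = 0.0019), and no single array left out ended the call (adjusted p at most 0.028). Rpa2 and Rpa3 did not pass, at 0.11 and 0.03. Neither Okazaki fragment gene passed. Lig1, the DNA ligase, had both FBB1.7 arrays on top with a difference of 0.27 (adjusted p = 0.13), and the flap nuclease Fen1 was at -0.04 (adjusted p = 0.85).

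In deoxynucleotide synthesis 2 of 5 genes rose in FBB1.7. Rrm1, the large subunit of ribonucleotide reductase, had 695 and 669 on the FBB1.7 arrays against 366 and 458 on the parental arrays, 460.4 and 458 on those of FBB1.5, 489 and 542 on those of FBB1.10 and 475 and 558 on those of FBB1.11. The FBB1.7 arrays were the highest and parental 1 the lowest, and the difference, 0.71 ± 0.12 (SE, adjusted p = 0.0013), was the largest among the 41 genes. The call held with any 1 array left out (adjusted p at most 0.022). Dut, which removes dUTP and so keeps uracil out of DNA, had 1119 and 1185 on the FBB1.7 arrays against 800.1 and 862 on the parental arrays, 912 and 1027 on those of FBB1.5, 907 and 988 on those of FBB1.10 and 1046 and 1147 on those of FBB1.11. Every subclone array exceeded both parental arrays, FBB1.11 reached into the FBB1.7 range, and the FBB1.7 difference was 0.46 ± 0.09 (SE, adjusted p = 0.0043). It was lost only without FBB1.7 2 among single arrays (0.056). Rrm2, the small reductase subunit, and Tk1, thymidine kinase, did not pass, at 0.20 (adjusted p = 0.53) and 0.14 (adjusted p = 0.63). Tyms, thymidylate synthase, was the dimmest member, at 31.5 to 59.3 over the 10 arrays, and did not pass (-0.13, adjusted p = 0.79). A brighter probe set that Tyms shares with its pseudogene Tyms-ps cannot be assigned to either. It ran from 332 on parental 1 to 448 on FBB1.7 2 and passed the test in FBB1.7, at 0.38 (adjusted p = 0.033), unlike the probe set of Tyms alone.

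The cyclin E genes, whose products activate Cdk2 at the entry into S phase, lay on the other side of 0 in FBB1.7. Ccne2 averaged 66.0 in parental cells and 45.1 in FBB1.7, a difference of -0.39 (adjusted p = 0.23). Ccne1 was at -0.19 (adjusted p = 0.53). Neither passed the test.

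**Figure D2:**
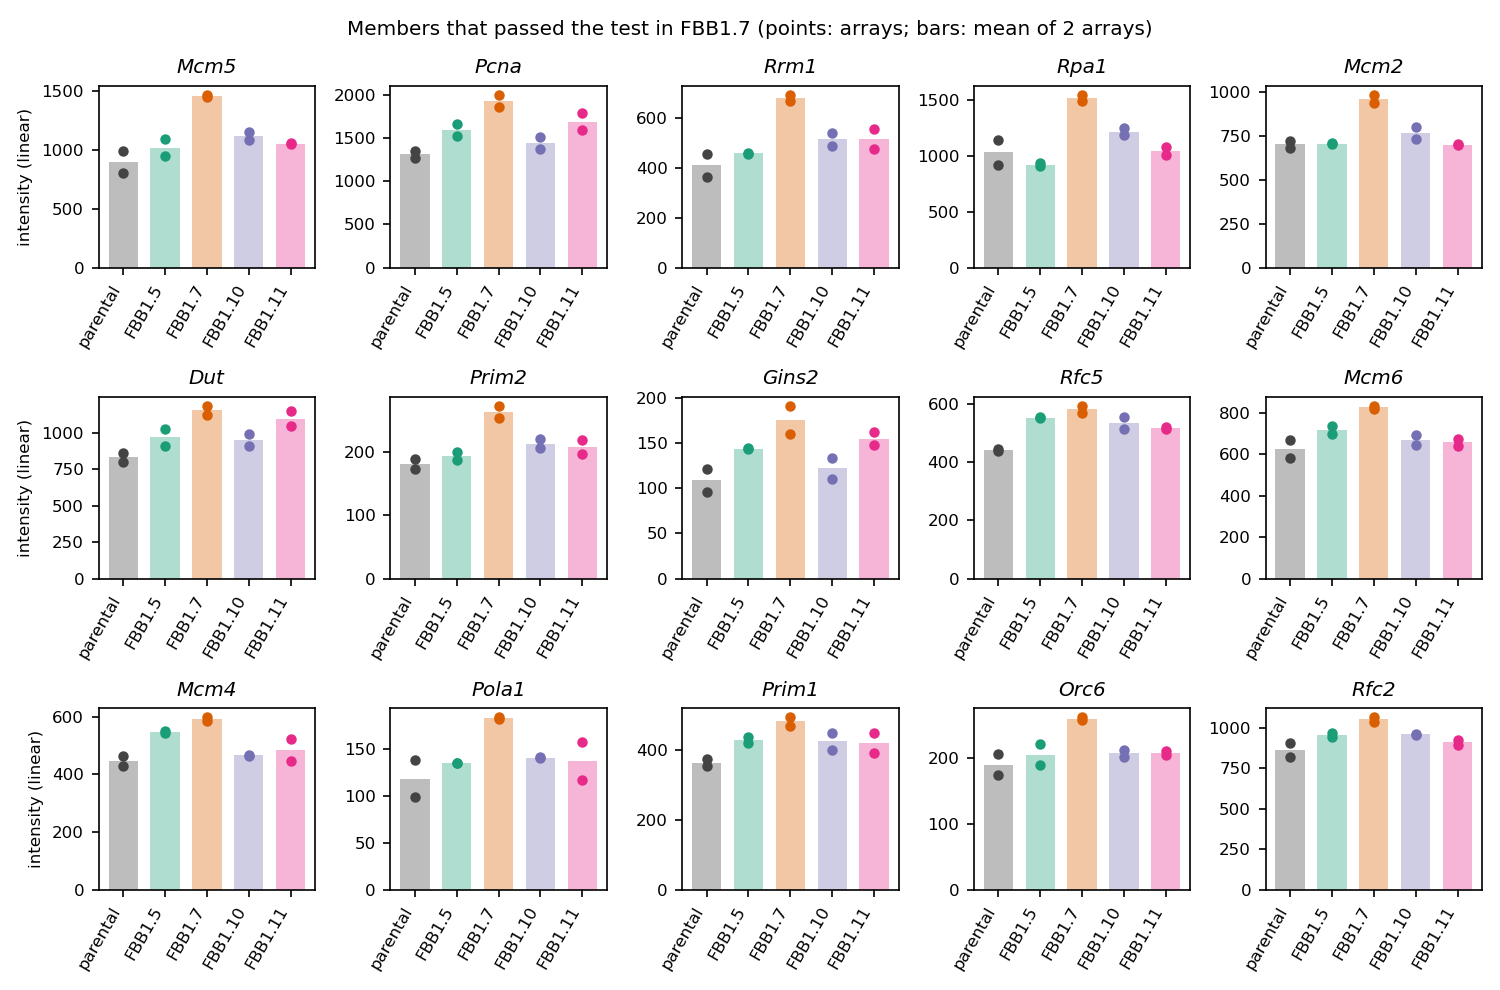
Linear intensity of the 15 genes that passed the test in FBB1.7 on the 10 arrays (points, single arrays; bars, mean of the 2 arrays of a line), in order of adjusted p. FBB1.7 has the tallest bar in each panel, and for Mcm5, Rpa1 and Rrm1 both its points are well above the others.

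Other probe sets of the same genes bore on these calls. Of the 15 genes, 11 had several tested probe sets, and all tested probe sets of those 11 lay above 0 in FBB1.7. No such share was counted over all called genes. Averaging the tested probe sets of a gene ended the call of Rfc2, whose dimmer ones were at 0.19 and 0.21 and did not pass. At least 2 probe sets passed for 6 of the 11, Mcm2, Mcm5, Mcm6, Prim2, Rpa1 and Rrm1. For Rrm1 the other probe set that passed gave 1.1 (adjusted p = 0.00028), against 0.71 on the brightest. Dimmer probe sets of Rfc4 (0.50, adjusted p = 0.04) and Rrm2 (0.60, adjusted p = 0.017) also passed although the brightest ones did not, as did one of Mcm3 (0.37) at the threshold.

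Marker levels of mast cells and of red cell precursors also differed in FBB1.7, those of mast cells in other subclones too. Summed intensities of all 8 mast cell and basophil markers, of which 5 were tested, were 826 to 945 in FBB1.7 against 5403 to 6538 in parental cells. They were 4934 to 6279 in FBB1.5, 2070 to 2589 in FBB1.10 and 1694 to 1725 in FBB1.11. Most of this was Mcpt2, a mast cell protease, while the defining genes Ms4a2, Fcer1a and Tpsab1 lay below the filter. Of the 8 red cell precursor markers tested, 3 fell in FBB1.7 (37.5%), Tal1, Zfpm1 and Tfrc. Over all genes 6.39% were called lower there, and over genes as bright as the members 11.1%. The summed level of the 9 red cell precursor markers with a probe set was 7530 to 7667 in FBB1.7 against 8202 to 9025 in parental cells. Of the macrophage, B cell, T cell and fibroblast markers, 5, 2, 1 and 3 were tested, and 0 passed in any subclone. In the same order, 5, 3, 3 and 5 had a probe set. Sums over these, tested or not, ran over 486 to 578, 79.8 to 110, 35 to 67.1 and 168 to 260. The part of these shifts in marker levels in the replication gene result was not tested.

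In the other subclones the median also lay above 0, but no member passed. In FBB1.5, 37 of 41 genes (90.2%) lay above 0 with a median of 0.15, against 52.8% of all genes above 0. Of the 41, 13 had an unadjusted p under 0.05 in limma, against 2010 of 12496 genes. After adjustment 0 passed (background 1.38% higher and 0.992% lower). The smallest adjusted p of a member in FBB1.5 was 0.089, for Rfc5, at 0.32. In FBB1.10, 30 (73.2%) lay above 0 with a median of 0.11, against 51% of all genes above 0. An unadjusted p under 0.05 was found for 6 of the 41 and for 1840 of 12496 genes, a share near the background. None of the 41 passed (smallest adjusted p 0.12, Mcm5), with a background of 0.936% higher and 0.872% lower. In FBB1.11, 33 (80.5%) lay above 0 with a median of 0.11, against 50.6% of all genes above 0. An unadjusted p under 0.05 was found for 7 of the 41 and for 1488 of 12496 genes. Again 0 passed (smallest adjusted p 0.091, Dut), with a background of 0.064% higher and 0.12% lower. All genes tested had medians between 0.00 and 0.01 in these subclones. The 4 comparisons share both parental arrays, so their signs are not independent of each other. Parental 1 was the lowest of the 10 arrays for 22 of the 41 genes (53.7%), against 11.5% of all genes. Without parental 1 the median fell in each of these subclones. In FBB1.10 and FBB1.11 almost none of it was left, as given below with the parental arrays. Without parental 2, Cdt1 passed in FBB1.5 and Mcm5 and Rpa1 in FBB1.10, all higher. Dimmer probe sets passed for Rfc3 (0.55, adjusted p = 0.041) and Rrm2 (0.60, adjusted p = 0.045) in FBB1.5 and for Rrm1 (0.75, adjusted p = 0.018) in FBB1.10.

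**Figure D3:**
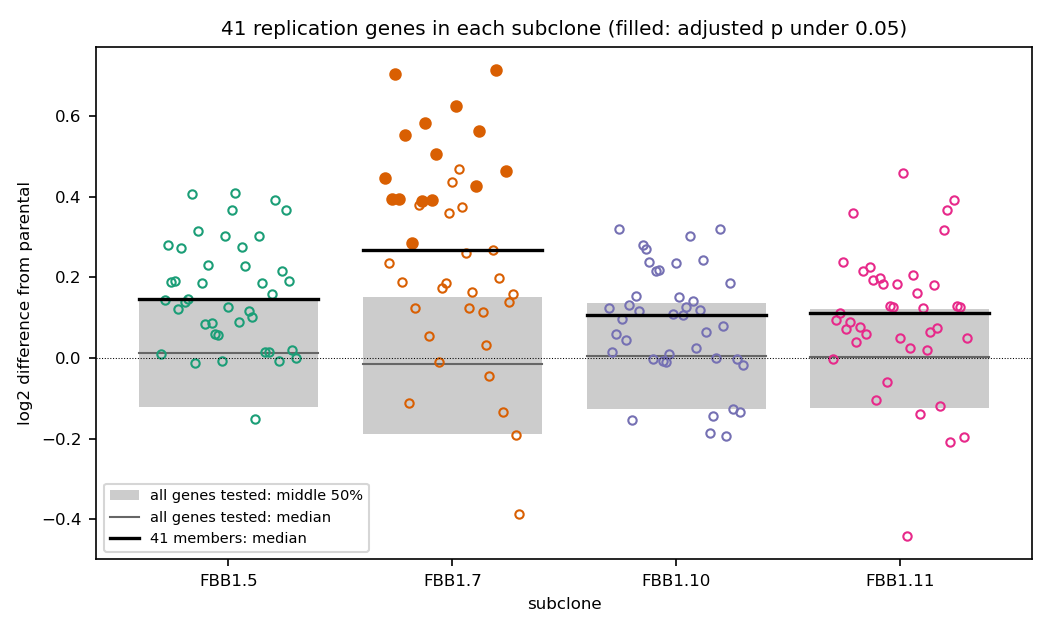
Log2 difference from parental of the 41 genes in each subclone (filled, adjusted p under 0.05; open, not passed), with the members' median as a black line and the middle 50% and median of all genes tested in grey. Filled points occur only under FBB1.7, and the black line lies above the grey one in each subclone.

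A test of the 4 subclones against each other does not use the parental arrays' levels. Of the 41 genes, 5 differed between subclones (12.2%), against 8.07% of all genes and 15.5% of genes as bright as the members, so the share was near the background. The 5 were Rpa1 (adjusted p = 0.0015), Mcm2 (0.0087), Mcm5 (0.012), Pcna (0.024) and Rrm1 (0.031), and in each FBB1.7 was the highest line. Rpa1 was lowest in FBB1.5, at 919 on average against 1517 in FBB1.7. Pcna was lowest in FBB1.10, at 1441 against 1935. Without FBB1.7 1 or FBB1.7 2, 1 of the 5 calls, Rpa1, was left.

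The 4 subclones were also taken as lines with the tagged factor and set against parental, with the line as a random block. The parental side is a single line, so the tagged factor cannot be told apart from a difference between lines. Here 0 of the 41 genes passed, and 0% of all genes were called in either direction in limma. Of the members, 8 had an unadjusted p under 0.05, against 1043 of 12496 genes, and the smallest adjusted p of a member was 0.43, for Rfc5. The mean of the 4 subclones was tested on the spread between arrays of a line, which cannot speak for subclones not measured. Called higher were 1.82% of all genes and 3.99% of genes as bright as the members, with 1.95% of all genes lower. Of the members, 5 (12.2%) were higher than parental. These were Pcna at 0.33 ± 0.07 (adjusted p = 0.013), Mcm5 at 0.36 ± 0.08 (adjusted p = 0.02), Dut at 0.31 ± 0.07 (adjusted p = 0.025), Rfc5 at 0.30 ± 0.07 (adjusted p = 0.031) and Rrm1 at 0.38 ± 0.09 (adjusted p = 0.035) (log2 difference ± SE). Dimmer probe sets of Rrm2 (0.58, adjusted p = 0.013), Rpa2 (0.43, 0.034), Mcm2 (0.30, 0.041) and Rpa1 (0.31, 0.049) also passed, although their brightest ones did not. By the brightest probe sets, none of the 41 was lower. The count was 0 without parental 1, 3 without parental 2, FBB1.7 1 or FBB1.10 2, and 2 without FBB1.7 2 or FBB1.11 2, and it was 1 once the actin ratio entered the fit. Both parental arrays lay below all 8 subclone arrays for 6 genes, Pcna, Rfc5, Prim1, Pole2, Cdc6 and Dut (14.6%), against 5.13% of all genes.

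The 2 parental arrays differed in these genes. The mean of log2(intensity + 16) over the 41 genes was 8.23 on parental 1 and 8.44 on parental 2, and array 2 was also the higher in each subclone, by less. The 2 means were 8.58 and 8.62 for FBB1.7, 8.48 and 8.51 for FBB1.5, 8.37 against 8.47 for FBB1.10, and 8.39 against 8.48 for FBB1.11. Parental 2 exceeded parental 1 in 32 of 41, with a median log2 difference of 0.23, against 0.02 over all genes tested, of which 53.6% were higher on parental 2. Parental 1 was the lowest of the 10 arrays for 22 members (53.7%), against 11.5% of all genes. Without parental 1, the median difference of the 41 genes was 0.23 in FBB1.7 but 0.06 in FBB1.5, 0.0031 in FBB1.10 and 0.0049 in FBB1.11. Without parental 2 it was 0.38 in FBB1.7, and the other subclones, taken in the same order, had 0.27, 0.22 and 0.18. Of the members, 9 passed in FBB1.7 without parental 1, 8 higher and 1 lower (Ccne2), and 16 without parental 2. For the mean of the 4 subclones 0 passed without parental 1 and 3 without parental 2. Parental 2 also had the highest actin ratio, and the FBB1.7 arrays had the lowest. The part of RNA integrity in the gap between the parental arrays was not tested. Its part in the FBB1.7 differences was not tested either, beyond the fit with the actin ratio.

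**Figure D4:**
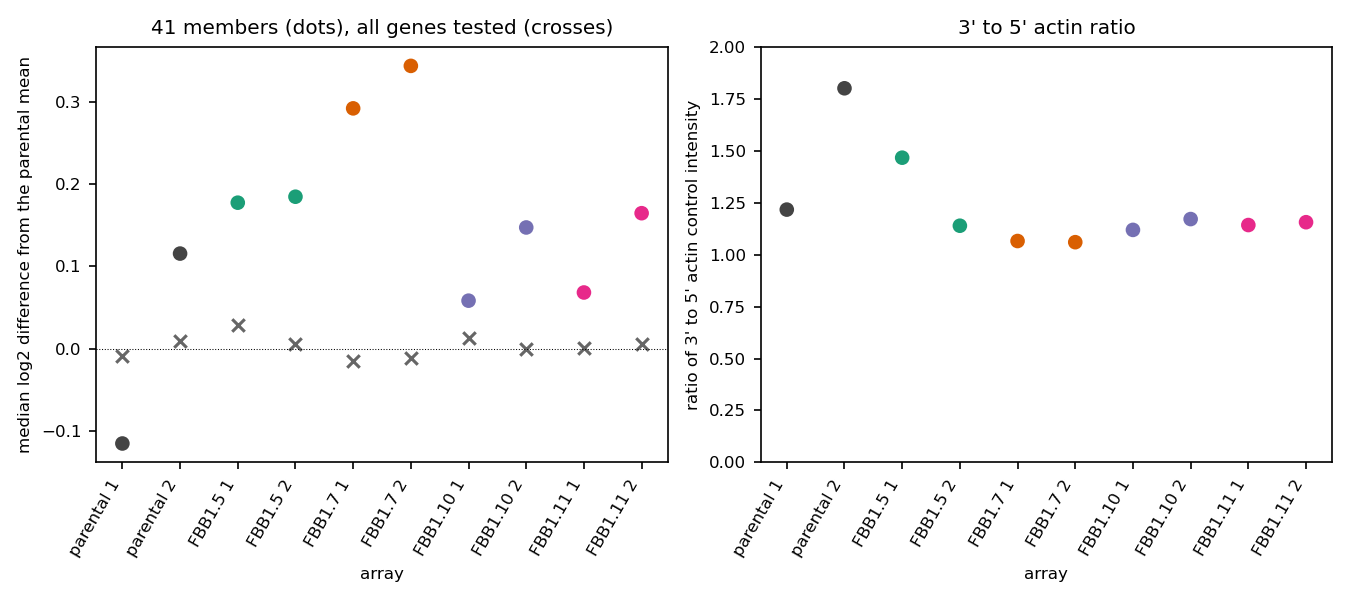
Left, the median over the 41 genes of the log2 difference from the parental mean on each array (dots), with all genes tested as crosses. Right, the 3′ to 5′ actin ratio. Parental 1 lies at -0.12 and parental 2 at 0.12, the 2 FBB1.7 arrays at 0.29 and 0.34 and the other subclone arrays between 0.06 and 0.18, while the crosses stay near 0.

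Other genes of the same processes were read from 3 lists that hold none of the 41. Of 34 tested among 36 other replication factors, 3 rose in FBB1.7, a different 3 rose in FBB1.5, and the other subclones had 0. The share in FBB1.7, 8.82%, was near the 8.68% of genes as bright as the members, with 4.29% over all genes. In FBB1.5 the same share stands beside 2.76% of such bright genes and 1.38% of all. In FBB1.7 these were Tipin, a fork protection factor, at 0.45 ± 0.12 (SE, adjusted p = 0.025), the helicase Mcm8 at 0.40 ± 0.11 (SE, adjusted p = 0.027), and topoisomerase Top2a at 0.28 ± 0.08 (SE, adjusted p = 0.03). In FBB1.5 they were Rnaseh2b, a subunit of ribonuclease H2, at 0.66 ± 0.09 (SE, adjusted p = 0.0016), the histone chaperone subunit Supt16 at 0.51 ± 0.09 (SE, adjusted p = 0.0069), and the fork factor Wdhd1 at 0.53 ± 0.13 (SE, adjusted p = 0.048). All 3 FBB1.5 genes lie on chromosome 14, where 82 of 440 tested genes (18.6%) were called higher in FBB1.5, and none of the 41 members lies there.

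Of 27 tested among 29 other nucleotide synthesis genes, 5 rose in FBB1.7, 2 in FBB1.10, 1 in FBB1.5 and 0 in FBB1.11. The shares of the list called higher were 18.5% for FBB1.7, 7.41% for FBB1.10 and 3.7% for FBB1.5. Over all genes they were 4.29%, 0.936% and 1.38%, and over genes as bright as the members 8.68%, 2.26% and 2.76%, in the same order. Dtymk, the kinase that makes dTDP from dTMP, had 576 and 581 on the FBB1.7 arrays against 304 and 348 on the parental arrays, 375 and 394 on those of FBB1.5, 460.4 and 443 on those of FBB1.10 and 404 and 431 on those of FBB1.11. It rose in FBB1.7 by 0.80 ± 0.10 (SE, adjusted p = 0.00021) and in FBB1.10 by 0.45 ± 0.10 (SE, adjusted p = 0.032). Nme1, a nucleoside diphosphate kinase, had 2494 and 2564 on the FBB1.7 arrays against 1248 and 1679 on the parental arrays, 1587 and 1719 on those of FBB1.5, 2059.9 and 2099 on those of FBB1.10 and 1862 and 1951 on those of FBB1.11. It rose by 0.80 ± 0.10 (SE, adjusted p = 0.00024) in FBB1.7 and 0.52 ± 0.10 (SE, adjusted p = 0.02) in FBB1.10. The 2 parental arrays of Nme1 were far apart, and parental 2 exceeded FBB1.5 1. Gmps, which makes GMP, rose in FBB1.7 by 0.42 ± 0.10 (SE, adjusted p = 0.015), as did Adsl and Prps1, and the purine enzyme Paics rose in FBB1.5 by 0.29 ± 0.07 (SE, adjusted p = 0.045). The genes named from these lists were picked by their calls in these data. Top2a, Wdhd1, Adsl and Prps1 were also chosen after their values were seen.

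Of 19 E2F and S phase regulators, all tested, 1 rose in FBB1.7, Uhrf1, which binds newly replicated DNA at methylated sites, at 0.55 ± 0.13 (SE, adjusted p = 0.012). In FBB1.5 the one that rose was Myc, the growth regulator, at 0.47 ± 0.10 (SE, adjusted p = 0.027), while its FBB1.7 value was -0.23 ± 0.10 (SE, adjusted p = 0.18). In FBB1.10 and FBB1.11 the count was 0. A count of 1 of 19 is 5.26%, near the background in FBB1.7 (4.29% of all genes, 8.68% of genes as bright as the members), and stands beside 1.38% and 2.76% in FBB1.5. None of the genes on these 3 lists fell in any subclone.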

How the data were processed

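The series holds 10 Affymetrix arrays of MEL cell RNA, 2 for each of 5 lines, grouped by sample title and source name. Per the labels' protocols, oligo-dT primed cDNA was transcribed into biotinylated cRNA and stained. The authors deposited linear probe set intensities. Their summarisation and scaling are not given in the sources used here. Array medians on the log2 scale differed by 0.0623, so no normalization was added. The number of arrays limits the precision.

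Of 45101 probe sets, 64 controls were left out, and 25061 above the table median (30.5) on at least 2 arrays were tested. Log2(intensity + 16) was fitted with limma 3.58.1 (eBayes with an intensity trend; R 4.3.3), as 5 line means or with line as a random block (statmod 1.5.0, consensus correlation 0.211). Adjusted p is Benjamini-Hochberg over all tested probe sets, called at 0.05. Percentages over all genes use 1 probe set for each of 12496 genes. Genes were named by the platform annotation, in which 34754 of 34958 probe sets with 1 symbol matched a RefSeq gene. The fits were run on simulated data with independent noise and changes added in FBB1.7 only. Without other differences between lines, such data cannot check the random block. The alternatives covered normalization, the value added, the filter, the trend, the actin ratio, the replicate block, the choice of probe set and each array left out. Members called in any subclone were named with every array value, and up to 4 genes of each other list, those called in most comparisons first. The members and lists were chosen with earlier results of these data known.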

Additional observations from a re-analysis of the deposited data

Results flagged for a closer look

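Of the 41 replication genes, 5 differed between the 4 subclones in limma's F test over their line means. Rpa1 had an adjusted p of 0.0015, and FBB1.7 was the highest line and FBB1.5 the lowest. Mcm2 had an adjusted p of 0.0087, with FBB1.7 above the other subclones. Mcm5 had an adjusted p of 0.012, again with FBB1.7 the highest. Pcna had an adjusted p of 0.024, with FBB1.7 the highest and FBB1.10 the lowest. Rrm1 had an adjusted p of 0.031, with FBB1.7 the highest. The share of members, 12.2%, stands beside 8.07% of all genes tested and 15.5% of genes as bright as the members. A line has 2 arrays, too few to look for a single array that stands apart within it.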

How the results depend on the processing

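Counts are of the 41 genes called. In FBB1.7 (15 called) the count was 7 without the intensity trend, and 6 to 16 with 1 array left out. Of the single-gene results called, 25 in all, 449 of 550 values under alternatives kept their call, the rest lost it and 0 reversed. The F test between subclones has no sign and could not reverse. Mcm5, Pcna, Rpa1 and Rrm1 kept theirs in FBB1.7 under all 22 alternatives. In FBB1.5 (0 called) the replicate block, the mean of a gene's probe sets, and leaving out parental 2 and FBB1.5 1 together gave 1 each, and single arrays left out 0 to 1. That last pair was chosen after seeing the data. In FBB1.10 (0) the mean of probe sets gave 1, the pair left out 2, and single arrays 0 to 2. In FBB1.11 (0) the replicate block gave 2, the mean of probe sets 1, and single arrays 0 to 0. Between the subclones (5) no filter gave 3, no trend 0, and single arrays 1 to 6. For the mean of 4 subclones (5) centring gave 3, no filter 2, no trend 0, the actin covariate 1, and single arrays 0 to 5. Tagged against parental stayed at 0 in each alternative. The cause of these changes was not tested. A line with 1 array left is assumed to vary like the others.

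Over all tested probe sets, arrays that share a number did not deviate together in every pair of lines (correlations of -0.157 to 0.183), so the numbers were not taken as pairs. The mean level of the 41 genes was nevertheless higher on array 2 in all 5 lines. The replicate block left the FBB1.7 count at 15. The 2 arrays per line, RNA from whole cultures and the unstated scaling limit each value, and the 4 subclone comparisons share the parental arrays.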
